A study of Mus musculus with 4 samples.

Results

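Lipogenic adipocyte nuclei without Ucp1 were examined in the inguinal white adipose tissue (iWAT) of young and aged mice kept warm or exposed to cold. They were selected nucleus by nucleus on measured values. A nucleus entered if it had 800 or more unique molecular identifiers (UMIs, each a tag that marks 1 captured RNA molecule), 0 Ucp1 UMIs, UMIs of 2 or more of the 5 adipocyte genes Adipoq, Plin1, Plin4, Lipe and Pparg, and UMIs of 2 or more of the 3 lipogenic genes Acly, Fasn and Elovl6. Of 15329 barcodes, 12518 had 800 or more UMIs, 6306 of these were Ucp1-negative adipocyte nuclei, and 1853 of the 6306 met the lipogenic criterion. The other 4453 Ucp1-negative adipocyte nuclei of the same mice served as the comparison.

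All mice were male C57BL/6, 9 weeks (young) or 57 weeks (aged) old, and were first held at 30 °C for 3 weeks. TN mice stayed at 30 °C for another 2 weeks, 3D mice spent 11 further days at 30 °C and then 3 days at 6 °C, and 14D mice went to 6 °C for 14 days. There were 2 mice in each of the 6 groups. Replicate 1 of every group was sequenced in pool 1 and replicate 2 in pool 2, so that a pool cannot be told apart from a replicate number. The study took its mice from 2 suppliers and housed them singly for the last 2 weeks, and nuclei were sorted from frozen tissue after the inguinal lymph node had been cut out.

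De novo lipogenesis (DNL) builds fatty acids from acetyl-CoA. ATP citrate lyase (Acly) and acetyl-CoA synthetase (Acss2) supply cytosolic acetyl-CoA, acetyl-CoA carboxylase (Acaca) makes malonyl-CoA from it, fatty acid synthase (Fasn) assembles palmitate with NADPH from malic enzyme and the pentose phosphate pathway, and Elovl6 and the desaturases lengthen and desaturate the product. White adipocytes run the pathway under insulin and carbohydrate control through SREBP1c and ChREBP (encoded by Srebf1 and Mlxipl), and cold is known to raise it in brown and beige fat, whose heat production depends on uncoupling protein 1, encoded by Ucp1.

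In the GENCODE M21 annotation of the mouse genome GRCm38, which is not the release that the study counted against, the 3 genes that chose the nuclei lie on chromosome 11 at 100476353 to 100528000 (Acly, minus strand), chromosome 11 at 120805846 to 120824547 (Fasn, minus strand) and chromosome 3 at 129532355 to 129638495 (Elovl6, plus strand). Acaca lies on chromosome 11 at 84129672 to 84401651, Acss2 on chromosome 2 at 155517948 to 155585724 and Tkt on chromosome 14 at 30548359 to 30574720, all on the plus strand. All 6 are protein-coding, and counts covered exons and introns.

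Depth differed between the classes and between mice. The median was 3880 UMIs in lipogenic and 2101 in the other Ucp1-negative nuclei. Per mouse, the medians of lipogenic nuclei ran from 1305 in young TN replicate 1 to 5421.5 in young 14D replicate 2 among the mice with 10 or more of them. No barcode was repeated within a pool, and 11 barcode sequences occurred in both pools. Each aliquot listed genes from a total of 6 UMIs upwards, so a gene at 0 may have gone unlisted rather than unexpressed. Liver transcripts stood out in pool 2. Of 709 UMIs of 8 hepatocyte genes in lipogenic nuclei, 697 (98.3%) sat in 7 nuclei with 2 or more of these genes, all from pool 2 mice, and 1 nucleus held up to 189. Scrublet, a doublet caller, marked 106 lipogenic nuclei (5.72%) and 226 of the others (5.08%).

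Among the 1853 nuclei, Fasn was detected in 96.4%, Acly in 88.0% and Elovl6 in 61.5%. All 3 genes were detected in 849 nuclei (45.8%), Acly with Fasn alone in 714, Fasn with Elovl6 alone in 223 and Acly with Elovl6 alone in 67. The median nucleus held 7 UMIs of the 3 genes together. This median was 15 in young 14D mice and between 2 and 4 in the other 5 groups. Single nuclei reached 61 UMIs of Acly, 32 of Fasn and 241 of Elovl6, each in a young 14D mouse. The summed Acly level in lipogenic nuclei ran from 253 CPM (summed UMIs of the gene scaled to the library's total, as counts per 1e6 UMIs) in aged 14D replicate 1 over a median of 495 to 2776 in young 14D replicate 2, and Elovl6 from 60.4 in aged 3D replicate 1 over a median of 269 to 1990 in young 14D replicate 2. These levels chose the nuclei and were not tested. In 3996 nuclei of the same depth limit with none of the 5 adipocyte genes, 9 had 2 or more lipogenic genes, and the share per mouse ran from 0 to 0.662%, at a median of 1346 UMIs.

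At the edge of the rule, 1802 nuclei had 1 lipogenic gene and stayed outside, and 1004 had exactly 2. Genes that the rule did not use stepped across this edge. Summed over all mice, Acss2 was at 163 CPM in nuclei with 0 lipogenic genes, 414 with 1, 873 with 2 and 2204 with 3. Acaca was at 1350, 2642, 4565 and 10130 CPM in the same order, and Tkt at 205, 305, 483 and 1422 CPM. Median depth also rose along this order, from 1851 over 2583 and 3393.5 to 4345 UMIs, so the edge is a position on a gradient and not a gap. The 2 young 14D mice gave 189 of the 2651 nuclei with 0 genes and 682 of the 849 with 3, so these sums mix mice of different make-up. Within single mice with 10 or more nuclei at both steps, from 1 to 2 genes Acss2 was higher in 9 of 10, Acaca in 10 of 10 and Tkt in 9 of 10, and from 2 to 3 genes all 3 were higher in 7 of 7.

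The first comparison asked how common lipogenic nuclei were in each group. In young TN mice 26 of 449 Ucp1-negative adipocyte nuclei (5.79%, exact 95% binomial interval 3.82 to 8.37) and 4 of 215 (1.86%, 0.509 to 4.69) were lipogenic in replicates 1 and 2. In young 3D mice the counts were 173 of 667 (25.9%, 22.6 to 29.4) and 117 of 504 (23.2%, 19.6 to 27.2). In young 14D mice they were 544 of 922 (59.0%, 55.7 to 62.2) and 490 of 591 (82.9%, 79.6 to 85.9). Both young 14D mice thus stood above all other 10 mice. The aged mice spread differently.

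In aged TN mice 32 of 511 nuclei (6.26%, 4.32 to 8.73) and 0 of 344 were lipogenic, and neither aliquot of the second mouse listed Acly or Elovl6. With unlisted genes taken as 0, no nucleus of that mouse could hold 2 lipogenic genes, so its 0 was fixed by the listing. In aged 3D mice 42 of 489 (8.59%, 6.26 to 11.4) and 229 of 507 (45.2%, 40.8 to 49.6) were lipogenic, so the 2 mice of this group did not overlap in interval. In aged 14D mice the counts were 103 of 636 (16.2%, 13.4 to 19.3) and 93 of 471 (19.7%, 16.2 to 23.6). The intervals cover counting error only.

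**Figure D1:**
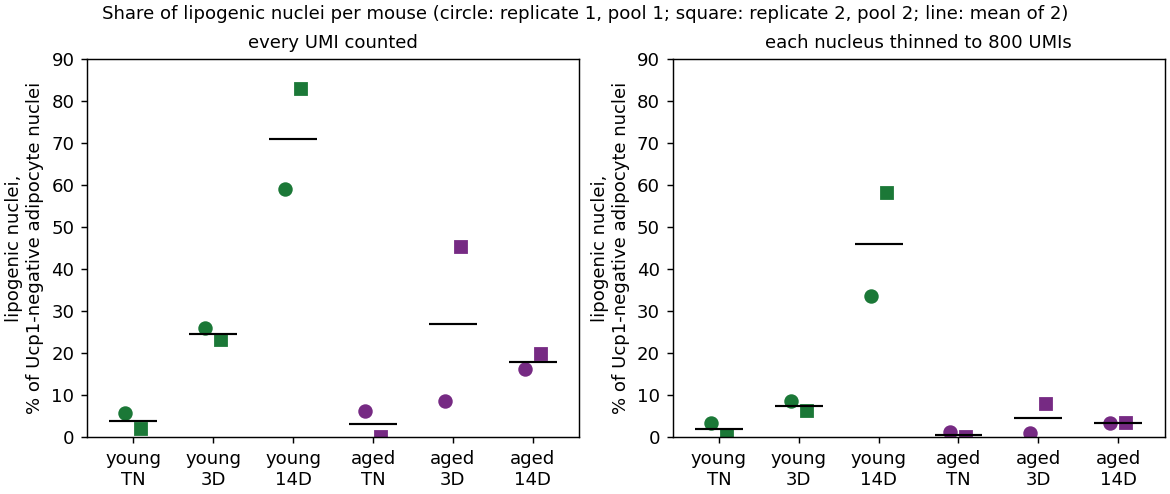
Lipogenic nuclei as a percent of Ucp1-negative adipocyte nuclei (y axis) in each of 12 mice by age and temperature (x axis), with every UMI counted (left) and with each nucleus thinned to 800 UMIs (right). Circles are replicate 1, squares replicate 2 and lines the mean of 2 mice, and the young 14D mice, at 33.7% and 58.1% after thinning, lie above the other 10.

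Detection of a few genes rises with depth, so shares were also computed for each nucleus thinned to 800 UMIs. They were 3.47% and 0.486% in young TN, 8.58% and 6.18% in young 3D, 33.7% and 58.1% in young 14D, 1.24% and 0% in aged TN, 1.05% and 7.93% in aged 3D, and 3.36% and 3.46% in aged 14D mice. Aged 3D replicate 2, whose comparison nuclei had the highest median of all mice (3913 UMIs), stayed above young 3D replicate 2 of the same pool after thinning and also among nuclei of at least 3000 UMIs (50.9% against 38.1%). The mean was 45.9% ± 17.3 (SD, n = 2) in young 14D and 3.41% ± 0.0748 (SD, n = 2) in aged 14D mice.

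Over both ages, the thinned share was 23.4 percentage points higher at 14D than at TN and higher in 4 of 4 combinations of age and pool. For the aged mice of pool 2, the TN share entered as the 0 that was fixed by the listing. TN, 3D and 14D were permuted within age and pool, and the two-sided exact p over 1296 arrangements was 0.0154 (adjusted over 3 share tests 0.0463). It rose at each step in 2 of the 4. Within pool 1 the difference was 16.2 points and within pool 2 it was 30.5. Leaving out a mouse drops its age and pool from this test. Without the young mice of pool 1 or of pool 2 the difference was 21.1 or 11.9 points and the exact p 0.0926, which did not pass, and without the aged mice of either pool it was 30.4 or 30.0 points and passed.

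Aged mice were 15.6 points below young mice at matched temperature and pool, lower in 5 of 6 pairs, with an exact p of 0.09375 (adjusted 0.141) where 0.03125 was the smallest the 64 arrangements allow. The 5 include the TN pair of pool 2, whose aged share of 0 was fixed by the listing. Without that pair the aged minus young difference was -18.6 points. Over the 8 cold mice the gap was 22.7 points, found in 3 of 4 pairs, at an exact p of 0.25 with 0.125 as the smallest possible. Without young 14D replicate 2 both gaps shrank, to -7.76 and -12.0 points. From TN to 14D the share rose by 43.9 points on average in young and by 2.79 in aged mice. The aged rise was 2.12 in pool 1 and 3.46 in pool 2, the latter from the fixed 0. Swapping ages within pool and temperature gave an exact p of 0.5 for the difference in rise between ages. In both TN pairs young lay above aged, so swapping a TN pair could only widen this difference. However far young exceeded aged at 14D, the p could not fall below 0.5, and 0.125, the smallest of 16 arrangements, was out of reach. The test therefore does not decide whether the rise differed with age. The nuclei were defined with earlier results of these data known, so these shares are not independent evidence of a direction.

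The second comparison set lipogenic against the other Ucp1-negative adipocyte nuclei of the same mouse, for genes that the rule did not use. UMIs were summed per mouse and class in the 10 mice with 10 or more nuclei of each class and tested with edgeR with the mouse as a block. Of 10491 genes, 265 (2.53%) were higher and 478 (4.56%) lower in lipogenic nuclei at an adjusted p under 0.05. The median log2 difference of all genes was -0.01. Among genes of acetyl-CoA supply, 8 of 9 tested rose and none fell, with a median log2 difference of 0.67.

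Acss2 was at 137 to 2097 CPM in lipogenic nuclei with a median of 837, and at 84.0 to 653 CPM with a median of 242 in the others. The log2 difference was 1.45 ± 0.16 (SE), higher in 10 of 10 mice, with an edgeR adjusted p of 3.3e-05. With every nucleus thinned to 800 UMIs, an Acss2 UMI was found in 10.4% to 67.0% of lipogenic nuclei per mouse and in 6.18% to 33.2% of the others of these mice, again higher in 10 of 10 mice. The classes were kept from the full counts, so thinning evened the detection of Acss2 and not the choice of nuclei. Slc25a1, the mitochondrial citrate carrier, was higher in 9 of 10 mice by 0.74 ± 0.16. The pyruvate carriers Mpc1 and Mpc2 (0.67 ± 0.14 and 0.51 ± 0.10), the pyruvate dehydrogenase subunit Pdhb (0.81 ± 0.16), citrate synthase Cs (0.43 ± 0.12) and pyruvate carboxylase Pcx (0.37 ± 0.11) rose too. Pdha1, the other pyruvate dehydrogenase gene of the list, had 0.58 ± 0.20 and an adjusted p of 0.092.

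Acaca, the carboxylase that commits acetyl-CoA to fatty acids, was at 1084 to 11080 CPM in lipogenic and 593 to 3721 in the other nuclei. It was higher in 10 of 10 mice, by 1.28 ± 0.17 (adjusted p 0.00014). The second carboxylase Acacb rose by 0.73 ± 0.16, and mitochondrial Mcat had -0.34 ± 0.32 (adjusted p 0.65). Of 8 genes of elongation and desaturation 3 rose, namely Hsd17b12, a reductase of the elongation cycle (0.80 ± 0.13, 10 of 10 mice), Scd2 (1.00 ± 0.22, 6 of 10) and Elovl3, which was above 0 in lipogenic nuclei of 4 of 10 mice, all at 14D. The main desaturase Scd1 had 0.44 ± 0.14 (adjusted p 0.072), Elovl5 0.26 ± 0.17 and Fads1 -0.07 ± 0.31.

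**Figure D2:**
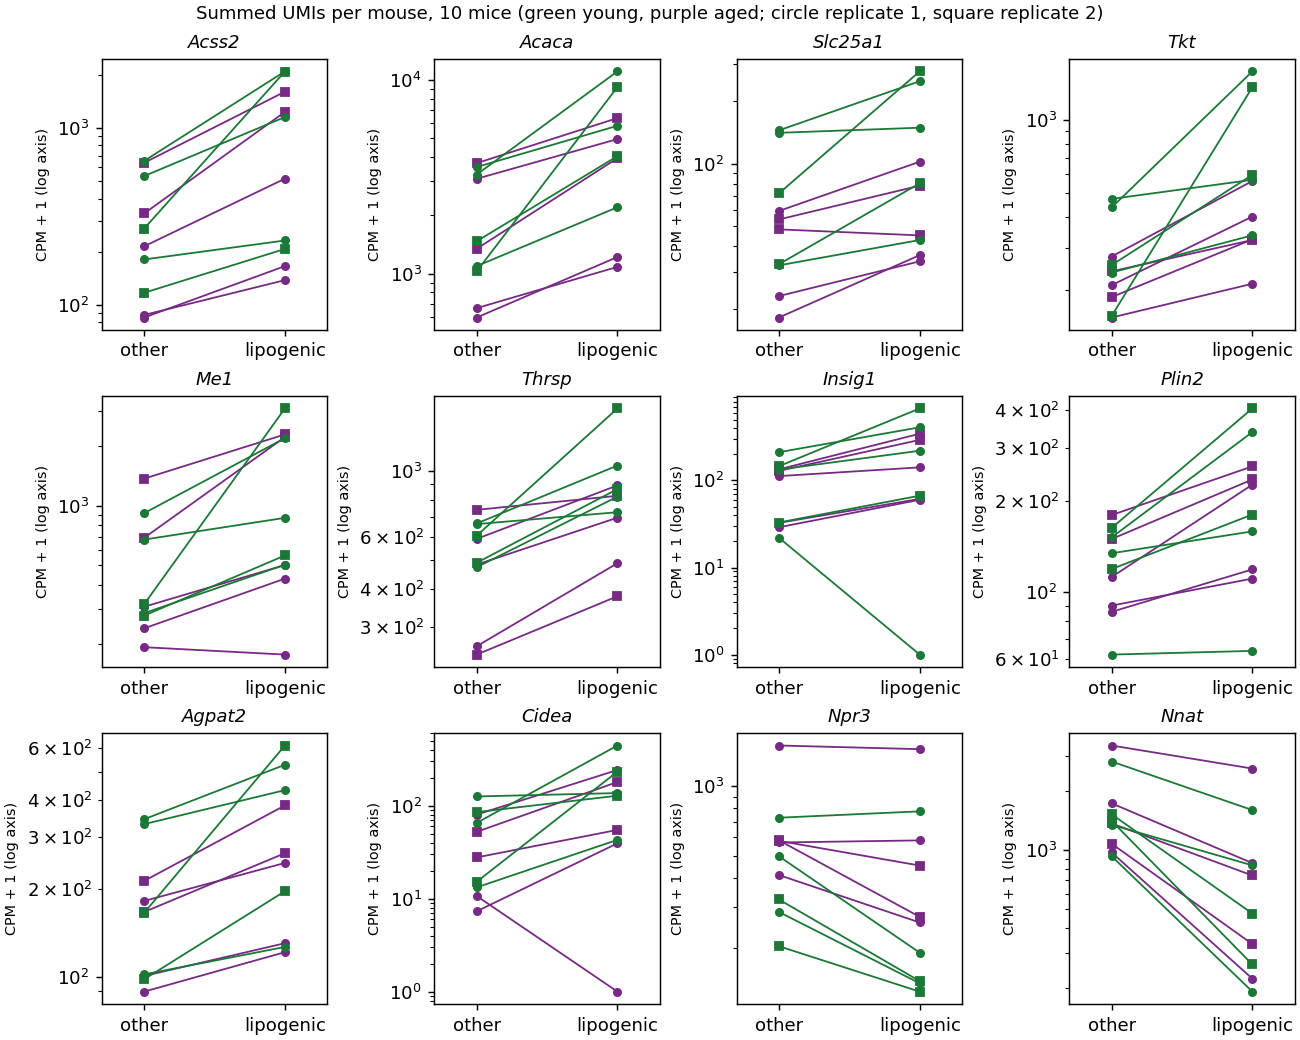
Summed UMIs as CPM + 1 (log axis) of 12 genes in the other Ucp1-negative adipocyte nuclei (left of each panel) and the lipogenic nuclei (right) of the same mouse, 10 mice per panel, each line 1 mouse, green young and purple aged, circles replicate 1 and squares replicate 2. Acss2, Acaca, Tkt, Thrsp, Plin2 and Agpat2 rise in 10 of 10 mice, and Nnat falls in 10 of 10.

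Of 8 genes of NADPH supply 4 rose. Malic enzyme Me1 was higher in 9 of 10 mice by 1.12 ± 0.20 and transketolase Tkt in 10 of 10 by 1.10 ± 0.19 (adjusted p 0.0014 and 0.0011), with Pgd and Taldo1 at 0.61 ± 0.17 and 0.48 ± 0.12. G6pdx, the first enzyme of the pentose phosphate pathway, had 0.33 ± 0.14 (adjusted p 0.18), Idh1 0.15 ± 0.10 and Pgls 0.10 ± 0.19. Among 9 regulators, 3 rose. Insig1, an endoplasmic reticulum protein that restrains SREBP processing, rose by 1.10 ± 0.15, Thrsp (Spot14) by 0.66 ± 0.10 and the coactivator Ppargc1b by 0.67 ± 0.16. The transcription factor genes themselves did not pass, with 0.32 ± 0.10 for Srebf1 (adjusted p 0.067), 0.47 ± 0.15 for Mlxipl (0.065) and 0.11 ± 0.12 for Nr1h3 (0.71).

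Genes that use fatty acids were partly higher. Of 11 glycerolipid genes 6 rose, among them the acyltransferases Agpat2 (0.75 ± 0.12, 10 of 10 mice), Dgat2 (0.49 ± 0.10, 10 of 10) and Gpam (0.50 ± 0.14), the glycerol phosphate dehydrogenases Gpd1 (0.77 ± 0.17) and Gpd2 (1.04 ± 0.19), and glycerol kinase Gk (1.04 ± 0.29). Of 7 lipolysis and droplet genes, the droplet coat genes Plin2 (0.74 ± 0.11, 10 of 10 mice) and Plin5 (1.31 ± 0.27) rose. Fatty acid oxidation, the opposite pathway, had 7 of 10 genes higher and none lower, with Ppara at 0.69 ± 0.14, Hadhb at 0.57 ± 0.14 and Acadm at 0.55 ± 0.11. Hadha, Acadvl and Ehhadh rose by 0.56 to 0.75. Of 15 genes of glucose uptake and glycolysis, Eno1 (0.96 ± 0.16, 10 of 10 mice), Aldoa, Pkm and Pfkl rose, and the insulin-regulated transporter Slc2a4 had 0.25 ± 0.19 (adjusted p 0.55). None of 11 insulin and adrenergic signalling genes passed the test. The median log2 differences were 0.49 for glycerolipid synthesis, 0.56 for oxidation, 0.33 for glycolysis and 0.07 for signalling, against -0.01 for all genes.

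Thermogenic genes other than Ucp1 were partly raised, with 5 of 12 higher and none lower at a median of 0.89. Cidea, a lipid droplet protein of brown and beige fat, was at 0 to 444 CPM (median 131) in lipogenic and 6.32 to 125 CPM (median 39.1) in the other nuclei, higher in 9 of 10 mice by 1.58 ± 0.25. Acot11 (2.36 ± 0.36), Sept9 (1.73 ± 0.40), the potassium channel gene Kcnk3 (0.99 ± 0.18) and the nuclear receptor Esrrg (0.89 ± 0.15) rose as well. Ppargc1a had 0.49 ± 0.17 (adjusted p 0.089), Cox8b 0.90 ± 0.31 and Prdm16 0.29 ± 0.12. Of the Ucp1-positive nuclei, 23.1% to 57.1% per mouse held a single Ucp1 UMI, so 0 Ucp1 UMIs does not show that a nucleus lacked Ucp1 RNA.

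Of the 6 genes by which the study describes its Npr3-high adipocytes, 3 fell and none rose. Neuronatin (Nnat) was at 190 to 2592 CPM in lipogenic and 929 to 3396 CPM in the other nuclei, lower in 10 of 10 mice by -1.41 ± 0.17 (adjusted p 5.3e-05). Synpo2 was lower in 10 of 10 by -1.64 ± 0.29 and the natriuretic peptide clearance receptor Npr3 in 8 of 10 by -0.66 ± 0.13. Leptin (Lep) had -0.28 ± 0.12 and the thyrotropin receptor Tshr -0.37 ± 0.13, which did not pass. Of 4 tested genes by which the study describes its DNL-low and DNL-high adipocytes, Fgf14, which both share, rose by 0.92 ± 0.16 in 9 of 10 mice and Acss2 rose, while Ces1f had 0.18 ± 0.12 and Gsta3 0.16 ± 0.12. The study chose both lists on these samples, so they are not independent evidence.

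The genes lowest in p among those lower in all 10 mice were Pde3a (-2.69 ± 0.27), the fibroblast receptor gene Pdgfra (-2.68 ± 0.30), elastin (Eln, -1.97 ± 0.22), Rhoj (-2.58 ± 0.30), Nnat, Chrm3 (0 to 5.17 CPM in lipogenic and 3.89 to 85.2 CPM in the other nuclei), decorin (Dcn, -2.15 ± 0.26) and Adam23 (-1.78 ± 0.23). Fibroblast markers had 4 of 7 lower, endothelial 4 of 4, mural 2 of 3, muscle 1 of 2 (Ttn) and immune 0 of 5. Ttn turned to 0.99 by DESeq2 (adjusted p 0.93), and summed muscle markers were higher in lipogenic nuclei of 5 mice and lower in 4. Summed fibroblast markers were at 51.4 to 300 CPM in lipogenic nuclei and 130 to 1896 in the others, higher in the others in 8 of 10 mice, and at 3369 or more in nuclei outside the adipocytes. The top value was that of young 14D replicate 2, whose other class held 101 nuclei and also 1508 CPM of endothelial markers. The part of non-adipocyte RNA in the lower genes was not tested. Mammary epithelial markers were listed in no aliquot.

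Beside Acss2, Acaca, Plin2, Thrsp and Agpat2, the 8 higher genes with the lowest p that rose in all 10 mice held Nsdhl, an enzyme of cholesterol synthesis (1.03 ± 0.13), Cnst (0.86 ± 0.12) and Tob1 (0.87 ± 0.13). Alb rose by 2.97 ± 0.51 in these summed counts and lay above 0 in 4 pool 2 mice only. Without the liver-marked and doublet nuclei 284 genes were higher and 569 lower, with 678 of the 743 calls shared. Among nuclei of 1500 to 3000 UMIs, where the classes are closer in depth, 121 were higher and 274 lower. Leaving out young 14D replicate 1 gave 450 calls in place of 743, and no other single mouse moved the count by more than 1.5 times.

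**Figure D3:**
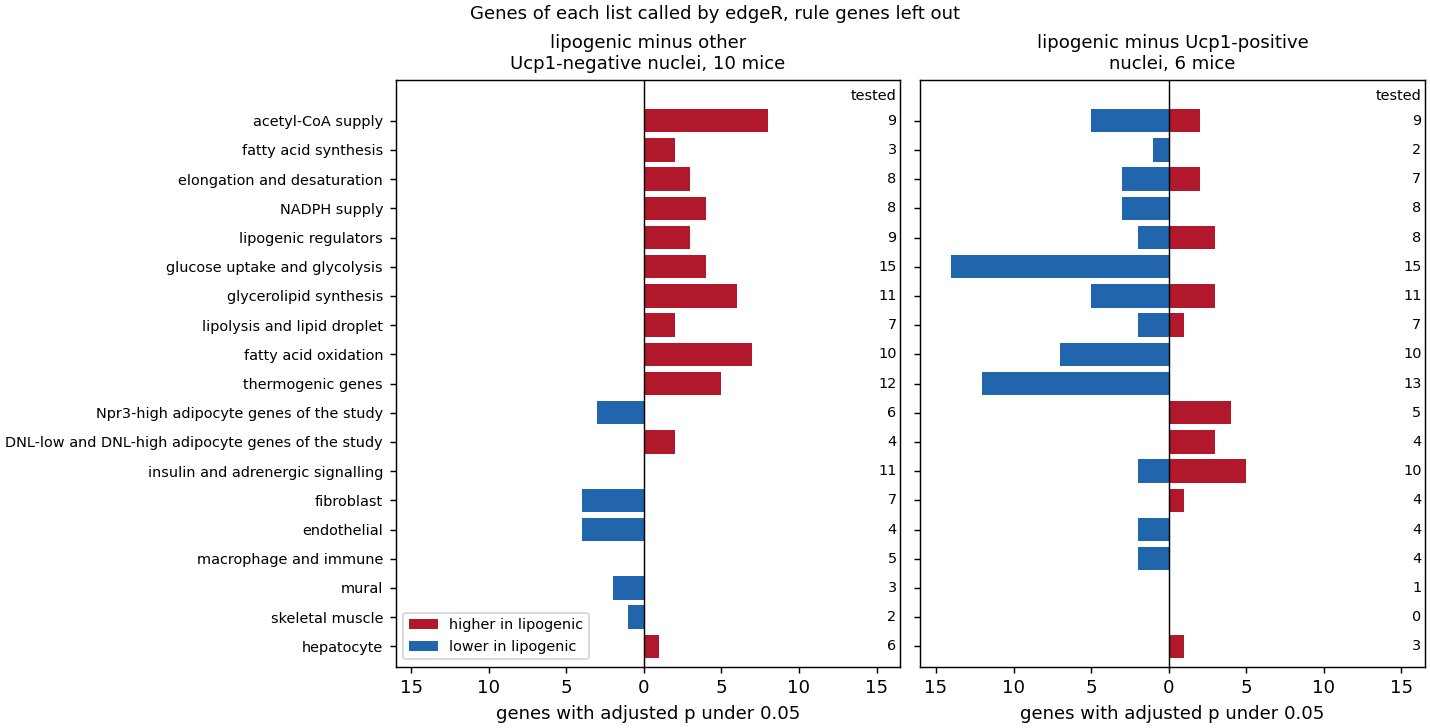
Number of genes per list (x axis) that edgeR called higher (red, right) or lower (blue, left) in lipogenic nuclei against the other Ucp1-negative nuclei of 10 mice (left panel) and against Ucp1-positive nuclei of 6 mice (right panel), with the number tested at the right edge. Synthesis, oxidation and thermogenic lists are on the higher side against the other Ucp1-negative nuclei, and 14 of 15 glycolytic and 12 of 13 thermogenic genes are on the lower side against Ucp1-positive nuclei.

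The third comparison set lipogenic nuclei against Ucp1-positive adipocyte nuclei, the beige side of the tissue. There were 510 of the latter, and 419 of them also met the lipogenic criterion. This share was 26.2% and 7.14% in young 3D, 94.9% and 98.5% in young 14D, and 63.6% and 84.6% in aged 14D mice. In the young 3D mice, nuclei chosen as lipogenic were thus set against mostly non-lipogenic ones. The Ucp1-positive nuclei came from 6 mice with 10 or more, as Ucp1 was listed in no TN aliquot and no aged 3D aliquot. Of 7859 genes, 1148 (14.6%) were higher and 1203 (15.3%) lower in lipogenic nuclei. Ucp1 itself was at 589 to 1328 CPM in Ucp1-positive nuclei, by construction.

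The lipogenic enzymes divided. Averaged over the 3D and 14D mice, Acss2 (0.04 ± 0.21), Acaca (-0.03 ± 0.22) and Scd1 (0.33 ± 0.20) did not differ beyond the spread between mice. These averages do not show that the classes were equal. After thinning, Acaca was detected in 91.9% and 84.8% of lipogenic and 54.7% and 57.6% of Ucp1-positive nuclei in young 3D mice. There Scd1 had 51.8% and 20.1% against 21.0% and 11.6%, and Acss2 49.6% and 15.1% against 27.2% and 15.3%. At 14D, Acaca ran from 81.5% to 97.2% against 86.9% to 98.9%, and Scd1 from 46.5% to 78.8% against 38.3% to 79.3%. Acss2 ran from 29.7% to 67.0% against 43.4% to 69.3%. A change from 3D to 14D was not tested. The citrate carrier Slc25a1 (0.83 ± 0.17) and Pcx (0.97 ± 0.15) were higher in lipogenic nuclei of 6 of 6 mice, as were the regulators Srebf1 (0.56 ± 0.14) and Insig1 (0.78 ± 0.18), and Thrsp was higher in 5 of 6 by 0.55 ± 0.20. The desaturase genes Fads1 and Fads2 were called higher but had no UMI in some mice. Tkt (-0.70 ± 0.21), Pgd (-0.81 ± 0.21), Mlxipl (-0.59 ± 0.18) and Ppargc1b (-2.20 ± 0.18) were lower, as was citrate synthase Cs (-1.56 ± 0.15). Elovl3, also called lower, was at 0 in both classes of the young 3D mice and at 2.23 to 40.9 CPM in lipogenic against 67.9 to 209.5 CPM in Ucp1-positive nuclei of the 14D mice. Tkt ran from 325 to 1565 CPM in lipogenic and 461 to 2325 CPM in Ucp1-positive nuclei, so the ranges overlapped.

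All but Ldha of 15 glycolytic genes were lower in lipogenic nuclei, with a list median of -1.34 against 0.00 for all genes. Pkm was at -2.15 ± 0.22 and hexokinase Hk2 at -1.25 ± 0.17, lower in 6 of 6 mice. Of 13 thermogenic genes 12 were lower, with Esrrg at -2.40 ± 0.17, Cidea at -2.43 ± 0.21 and Dio2, the deiodinase that activates thyroid hormone, at -3.14 ± 0.33. Ebf2 did not pass. In lipogenic nuclei Cidea stood at 128 to 439 CPM and in Ucp1-positive nuclei at 797 to 1658 CPM, without overlap. By both fits, Cidea and Esrrg lay between the other Ucp1-negative and the Ucp1-positive nuclei. Oxidation genes had 7 of 10 lower, and glycerol kinase Gk was at -3.54 ± 0.26.

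Glycerolipid and droplet genes were split. Dgat2 (0.70 ± 0.14), Pck1 (0.80 ± 0.15), Gpat3 (1.92 ± 0.22) and the droplet gene Cidec (1.41 ± 0.15) were higher in 6 of 6 mice, while Gpam, Gpd1 and Plin2 were lower. Of insulin and adrenergic genes, Irs1 (1.00 ± 0.16), Irs2 (1.16 ± 0.30), Pik3r1 (1.42 ± 0.17), Pde3b (0.68 ± 0.13) and the β3-receptor Adrb3 (0.83 ± 0.17) were higher, and Adrb1 and Gnas lower. The study's DNL-high genes Ces1f and Gsta3 were higher, as was Fgf14, shared by its DNL-low and DNL-high cells, and so were 4 of 5 of its Npr3-high genes. The 8 lowest p of each direction among genes alike in 6 of 6 mice were Nnat (4.26 ± 0.23, adjusted p 2.3e-11), Slc7a10, Atp2b4, Slc2a13, carbonic anhydrase Car3 (3.46 ± 0.21), Trabd2b, Prr16 and Apol6 on the higher side. Aig1, Shtn1, Slc4a4, Esrrg, Slc25a42, Cbfa2t3, the acyl-CoA synthetase Acsl5 (-2.87 ± 0.21) and pantothenate kinase Pank1 (-2.81 ± 0.21) were on the lower side. With nuclei thinned to 800 UMIs, 419 were higher and 416 lower.

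The fourth comparison asked what changed inside lipogenic nuclei between 3 and 14 days of cold. Of 8947 genes, 39 (0.436%) were higher and 38 (0.425%) lower at 14D, averaged over ages, with the pool as a term. In the synthesis lists, Scd1 and Slc25a1 passed, and Elovl3 was called without a value at 3D. Nuclei with all 3 lipogenic genes made up 16.2% of lipogenic nuclei in young 3D, 66.0% in young 14D, 26.6% in aged 3D and 20.9% in aged 14D mice, and the part of this make-up in the differences was not tested. Scd1, the main stearoyl-CoA desaturase, was at 1141 and 305 CPM in young 3D, 2183 and 2421 in young 14D, 266 and 450 in aged 3D, and 1284 and 965 in aged 14D mice. Each 14D mouse was above both 3D mice of its age, by 1.65 ± 0.31 on the log2 scale (adjusted p 0.023). Slc25a1 rose by 1.12 ± 0.22, higher in 4 of 4 matched pairs.

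Elovl3, which elongates very long chain fatty acids, was listed in no 3D aliquot and taken as 0 there, so that it entered the test through the 14D mice alone. It was at 41.1, 36.2, 18.4 and 2.21 CPM in young and aged 14D replicates 1 and 2. Acaca had 0.65 ± 0.36, Acss2 0.74 ± 0.55, Tkt 0.78 ± 0.18 (adjusted p 0.069), Srebf1 0.47 ± 0.17, Mlxipl 0.52 ± 0.17 and Me1 0.83 ± 0.37, and none of these passed. List medians were above 0 for acetyl-CoA supply (0.32, 9 of 9 genes above 0) and NADPH supply (0.47, 8 of 8), against -0.01 for all genes.

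**Figure D4:**
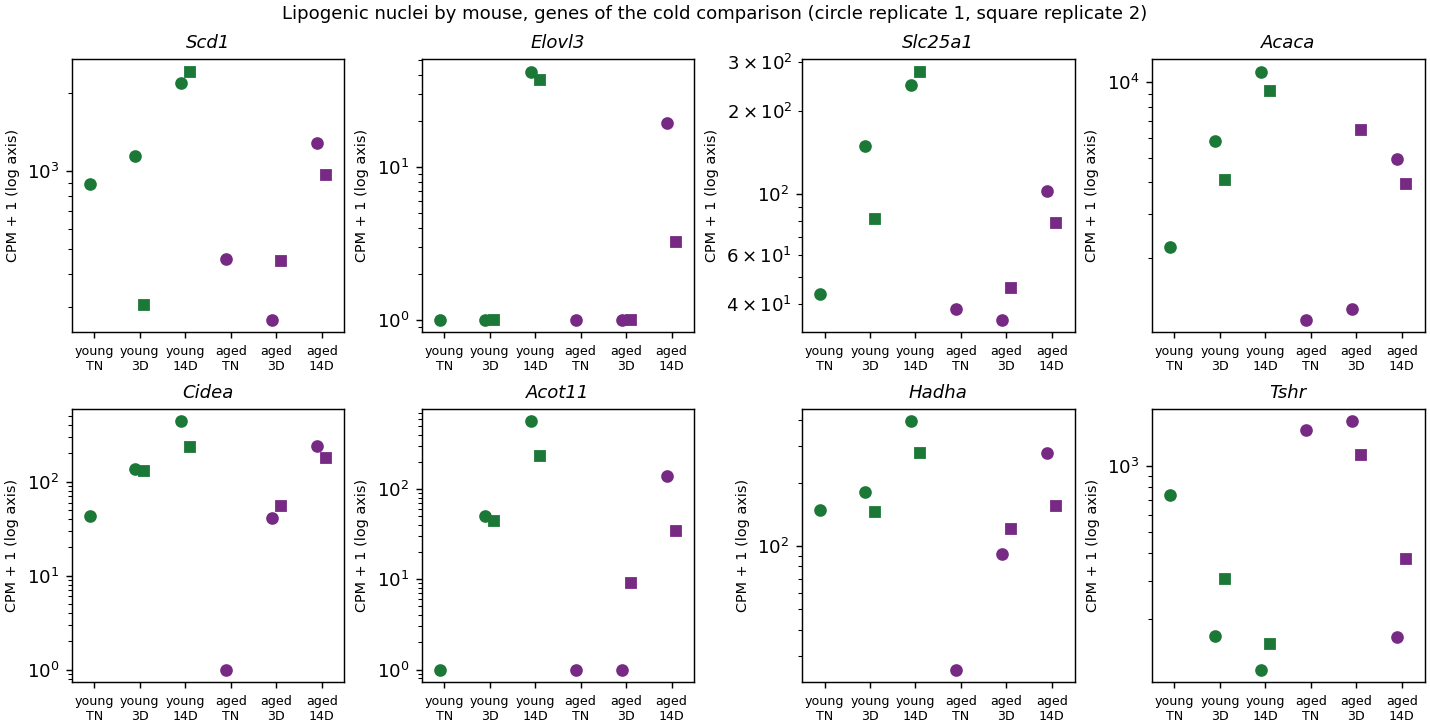
CPM + 1 (log axis) of 8 genes in the lipogenic nuclei of each of 10 mice by age and temperature, circles replicate 1 and squares replicate 2. Elovl3 was listed in no 3D aliquot and is drawn as 0 there. Scd1, Slc25a1, Cidea, Acot11 and Hadha are higher at 14D than at 3D in 4 of 4 matched pairs, Tshr is lower in 4 of 4, and Acaca is higher in 3 of 4.

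Of 10 thermogenic genes 3 passed. Acot11 rose by 3.05 ± 0.34, Cidea by 1.60 ± 0.21 and Sept9 by 2.47 ± 0.34 in 4 of 4 pairs, and the other 7 did not pass, with -0.01 ± 0.22 for Ppargc1a, 0.19 ± 0.22 for Esrrg and 0.26 ± 0.19 for Prdm16. Cidea was at 137 and 128 CPM in young 3D, 441 and 232 in young 14D, 39.6 and 54.6 in aged 3D, and 242 and 179 in aged 14D mice. In oxidation, Hadha (0.94 ± 0.19) and Ppara (1.26 ± 0.24) rose. Nav2 (3.14 ± 0.34), 5930430L01Rik (1.25 ± 0.17), the receptor kinase gene Grk3 (1.71 ± 0.23), the ubiquitin ligase gene Rnf152 (2.46 ± 0.34) and Hephl1, which was not listed in 3 of the 4 3D mice and taken as 0 there, complete the 8 lowest p.

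On the lower side were Tshr (-1.59 ± 0.24, from 166 and 305 CPM in young 3D to 117 and 153 in young 14D, and from 1608 and 1121 to 166 and 378 in aged mice), Gm5627 (-1.46 ± 0.23), the basement membrane collagen gene Col15a1 (-1.35 ± 0.22), Sh3pxd2a, Arhgef37, Zbtb16, Gm4876 and the immunoglobulin gene Ighm (-2.33 ± 0.40). Col3a1 of the fibroblast list fell by 0.96 on the log2 scale. Alb had -2.35 ± 0.29 and was above 0 in pool 2 mice only, and without young 14D replicate 2 its value turned to 0.31. In the other Ucp1-negative nuclei of the same mice, the same contrast gave 0.78 ± 0.25 for Scd1, -0.83 ± 0.24 for Tshr and 0.52 ± 0.40 for Slc25a1. Leaving out young 14D replicate 2, aged 14D replicate 1, aged 14D replicate 2 or young 3D replicate 2 gave 26, 28, 33 and 43 calls in place of 77, and thinned nuclei gave 23. Without the liver-marked and doublet nuclei there were 35 higher and 18 lower genes.

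Against TN, 72 genes (0.805%) were higher and 34 (0.380%) lower at 14D by TMM scaling, and 44 were higher and 37 lower by RLE scaling. This rested on 1 TN mouse of each age with 26 and 32 lipogenic nuclei (38922 and 77602 UMIs), and the median of all genes was 0.56. Genes were tested against 0 and not against that shift. Cidea, Ppara (2.65 ± 0.42), Nrg4 (1.63 ± 0.26), St3gal6, Klhl24, Abcd3, Ldlrad4 and 5930430L01Rik led the higher genes. Mycbp2, complement C4b, Tshr (-2.69 ± 0.35), Gm4876, Ahnak, Adamts5 and Hip1 led the lower ones. At TN, Cidea had 2 UMIs in the young and 0 in the aged lipogenic nuclei, and Klhl24 had none in the young ones, so no fitted difference is given for them. Npr3, Lep and Nnat of the Npr3-high list also fell, and of synthesis genes Mpc1, Acacb and Tkt were among those that rose. Without aged 14D replicate 1, young 14D replicate 1 or aged 14D replicate 2 there were 2, 41 or 65 calls in place of 106.

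The fifth comparison was by age. Averaged over TN, 3D and 14D, 9 of 8947 genes (0.101%) were higher and 1 (0.0112%) lower in lipogenic nuclei of aged mice, with an all-gene median of 0.10. TN entered this average through 1 young and 1 aged mouse, with 26 and 32 lipogenic nuclei. Erbb4, a neuregulin receptor, was at 148 CPM in young TN, 302 and 282 in young 3D and 108 and 121 in young 14D mice, and at 669, 787 and 544, and 739 and 817 CPM in the matched aged mice. No aged mouse overlapped a young one, and the log2 difference was 2.03 ± 0.21 (adjusted p 0.00068). Ctnna3, an alpha-catenin gene, was at 0 to 18.9 CPM in the 5 young and 147 to 467 CPM in the 5 aged mice. At 14D alone, where no group was at 0, its difference was 3.40 ± 0.26.

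The adapter gene Sorbs2 (3.31 ± 0.47, 5.87 to 27.5 CPM in young and 39.1 to 297 CPM in aged mice), Gm4876 (1.77 ± 0.18) and Tshr (1.52 ± 0.24) were higher in 5 of 5 pairs. The calcium release channel gene Ryr2 was at 0 to 10.0 CPM in young and 37.6 to 112 CPM in aged mice, and C130026I21Rik at 0 to 2.44 and 28.3 to 61.9 CPM. Cux2 was listed in 2 of 12 young and 12 of 12 aged aliquots. It had no UMI in the young lipogenic nuclei, where unlisted aliquots were taken as 0, and 4.42 to 113 CPM in the aged ones, so that it passed the filter on low counts through the aged mice alone. Tspan5 made up the count of higher genes (1.14 ± 0.19). For Ryr2, C130026I21Rik and Cux2, at 0 in some or all young mice, fitted differences depend on the constant added before the logarithm and are not given. DESeq2 also called 6 of the 10 genes and gave no adjusted p for Sorbs2, Ryr2, C130026I21Rik and Cux2, and in thinned nuclei 5 of the 10 were called, while Sorbs2 and Ryr2 (adjusted p 0.24 each), C130026I21Rik (0.058) and Tspan5 did not pass and Cux2 was under the filter on low counts.

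**Figure D5:**
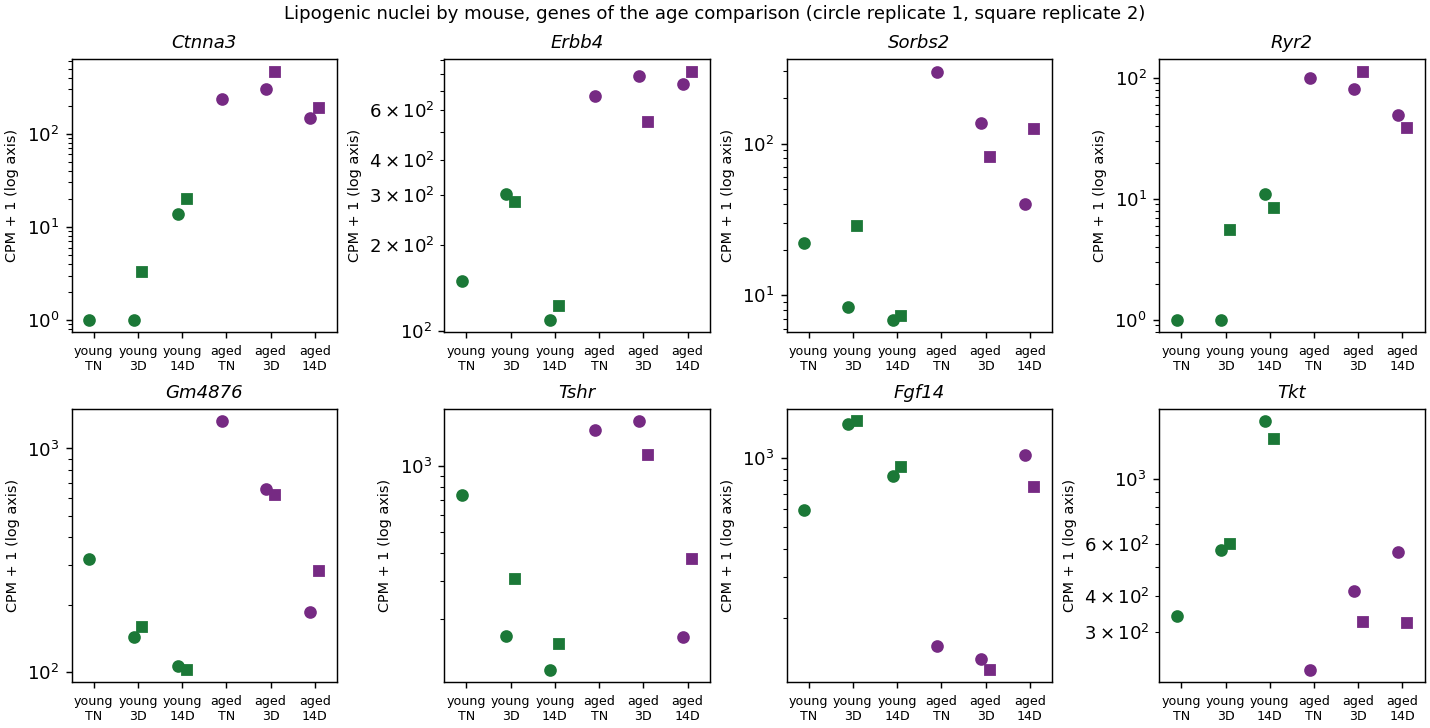
CPM + 1 (log axis) of 8 genes in the lipogenic nuclei of each of 10 mice by age (green young, purple aged) and temperature, circles replicate 1 and squares replicate 2. Ctnna3, Erbb4, Sorbs2 and Ryr2 do not overlap between ages, and Fgf14 is low in aged TN and 3D mice and overlaps the young mice at 14D.

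Fgf14, an intracellular fibroblast growth factor that the study describes as shared by its DNL-low and DNL-high adipocytes, was the single gene lower with age, by -1.84 ± 0.20. It was at 592 CPM in young TN, 1409 and 1455 in young 3D, 835 and 917 in young 14D, 149 in aged TN, 130 and 117 in aged 3D, and 1036 and 749 in aged 14D mice. The gap was thus found at TN and 3D (-3.54 ± 0.27 at 3D) and not at 14D (0.02 ± 0.23), and the difference between both gaps was 3.56 ± 0.35 (edgeR adjusted p 0.0004), in a test added after the values were seen. From 3D to 14D Fgf14 rose by 1.07 over both ages, in the 2 aged pairs only.

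No gene of the synthesis lists passed over the 3 temperatures. Tkt had -1.02 ± 0.22 (adjusted p 0.12, lower in 5 of 5 pairs), Mlxipl -0.67 ± 0.18, Srebf1 -0.63 ± 0.20, Slc25a1 -1.04 ± 0.51, Scd1 -0.94 ± 0.32, Acaca -0.86 ± 0.36 and Acss2 -0.56 ± 0.76. Below 0 lay 8 of 9 genes of acetyl-CoA supply (median -0.56) and 5 of 8 of NADPH supply (-0.21), against 0.10 for all genes. At 14D alone, where each young mouse gave 490 or 544 and each aged mouse 93 or 103 lipogenic nuclei, 110 genes were higher and 58 lower. There Tkt (-1.76 ± 0.25, adjusted p 0.0026), Slc25a1 (-1.57 ± 0.27, 0.0084) and Mlxipl (-1.22 ± 0.24, 0.017) passed, while Acaca (-1.18 ± 0.51, 0.41), Scd1 (-1.07 ± 0.42, 0.34) and Acss2 (-1.35 ± 0.78, 0.62) did not. The differing shares of nuclei with all 3 lipogenic genes at 14D, given above, apply here too, and their part was not tested. This contrast was added after the values were seen, and the liver genes Cps1, Mat1a, Tat and Alb were among its 8 lowest p. Leaving out the TN mouse of either age took TN out of the contrast, which then averaged 3D and 14D alone. This different contrast gave 178 (young TN left out) or 193 (aged TN left out) calls, in place of 10 over the 3 temperatures. Without young 14D replicate 1, young 14D replicate 2 or aged 3D replicate 2 the count was 17, 21 or 27.

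Whether age acted differently on lipogenic and on the other Ucp1-negative nuclei was tested over the 8 cold mice as the interaction of class and age. Of 10341 genes, 0 were higher (0%) and 0 lower (0%) by edgeR, 454 had an unadjusted p under 0.05 and DESeq2 called 0. The lowest p belonged to Alb (-5.16 ± 0.74, adjusted p 0.12) and Tat, liver genes that in lipogenic nuclei were above 0 in pool 2 mice only, and to Ctnna3 (adjusted p 0.25), which had no UMI in lipogenic nuclei of young 3D replicate 1. Tkt had -0.77 ± 0.40, Acaca -0.74 ± 0.38 and Mlxipl -0.66 ± 0.31. In the other Ucp1-negative nuclei of the 10 mice, aged minus young was 2.49 ± 0.25 for Erbb4, -1.40 ± 0.21 for Fgf14 (adjusted p 0.0039 and 0.033) and -0.49 ± 0.23 for Tkt (0.51). In simulated counts of this design 47% of 4-fold and 4% of 2-fold interactions were found, so smaller differences between the classes could go undetected. Every gene was simulated at the same fixed dispersion without mouse effects, so these rates need not hold for the real counts.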

How the data were processed

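Single nuclei of iWAT from 12 mice, as 24 hashed aliquots in 2 pools, were analysed. According to its methods section, the authors aligned reads with Cell Ranger to GRCm38 with introns, removed ambient RNA with CellBender and kept hashtag singlets. The authors deposited UMI counts per gene and nucleus, as whole numbers that were not normalized, in which genes under 6 UMIs in an aliquot were not listed and were taken as 0. Hashtag libraries were not used here. Age, temperature and replicate came from the deposited sample table, and 2 aliquots were summed per mouse. The members and gene lists were chosen with earlier results of these data known. UMIs were summed per mouse and class (at least 10 nuclei) and tested with edgeR 4.0.16 in R 4.3.3 (quasi-likelihood F-test, TMM, filterByExpr), with the mouse or the pool as a block and Benjamini-Hochberg adjustment at 0.05. The 9 rule genes stayed in library sizes and out of the tests. The SE is the log2 difference divided by the square root of F, and CPM are TMM-scaled. Named genes were list genes and the 8 per direction with the lowest adjusted p that moved alike in every mouse or pair. Replicate numbers pair mice by pool, as the sample table states, and classes share the mouse. Shares were tested by exact permutation. Scrublet (scanpy 1.11.5, rate 0.05) marked doublets. Fits were tested on simulated data with 200 changed genes: of 4-fold changes 100% were found for lipogenic against other nuclei, 97% for 14D against 3D, 41% for 14D against TN, 91% for age and 100% for lipogenic against Ucp1-positive nuclei, and of 2-fold changes 84%, 32%, 8%, 24% and 48%. The simulation drew every gene at the same fixed dispersion without mouse effects, so these rates need not hold for the real counts. Alternatives were DESeq2 1.42.0, RLE scaling, no filter, thinning, stricter rules and leaving out each mouse. Values of a few named genes are not reported here.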

Additional observations from a re-analysis of the deposited data

Results flagged for a closer look

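An interaction of age and cold within lipogenic nuclei was tested with edgeR, a test added after the values were seen. At an adjusted p under 0.05, the age difference itself differed between 14D and 3D for 37 of 8947 genes, 31 higher and 6 lower at 14D. They included the urea cycle gene Cps1, picked after its values were seen, which was at 243 CPM in young 3D replicate 2, 155 in aged 3D replicate 2, 371 in aged 14D replicate 2, 2.96 in young 14D replicate 2 and 0 in all pool 1 mice. Without liver-marked and doublet nuclei 4 genes were called, with DESeq2 13 and with thinned nuclei 3. The same test was not run in the other Ucp1-negative nuclei, so it does not set the classes apart.

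The 4 genes were Fgf14 (14D minus 3D of the age difference 3.56 on the log2 scale), Bcl6 (-3.05), Pmepa1 (2.61) and Hephl1 (-9.36, where 3 of the 4 3D mice were at 0, so that the size depends on the constant added before the logarithm). Fgf14 and Pmepa1 were also called by DESeq2 and after thinning. Bcl6, a transcriptional repressor, was at 166 and 174 CPM in young 3D, 461 and 545 in young 14D, 226 and 393 in aged 3D, and 115 and 108 in aged 14D mice. Pmepa1, an inhibitor of TGF-β signalling, was at 1010 and 449, 849 and 529, 226 and 64.5, and 1133 and 471 CPM in the same order.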

How the results depend on the processing

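Calls below are counts of genes at an adjusted p under 0.05, and the cause of each shift was not tested. Thinning to 800 UMIs kept the classes of the full counts. With nuclei so thinned, lipogenic against other nuclei gave 474, 14D against 3D 23 and lipogenic against Ucp1-positive nuclei 835. Without the replicate block (the mouse, or the pool that the replicate numbers stand for), these counts were 61 for lipogenic against other nuclei, 9 for 14D against 3D and 61 for 14D against TN, and the block moved no other count by over 1.5 times. Nuclei of 1500 to 3000 UMIs gave 395, 10 for 14D against 3D and 3 for age. Without a filter on low counts, 14D against 3D gave 260, 14D against TN 356, age 114 and the interaction of class and age 4. DESeq2 gave 25 for 14D against 3D and 26 for age, 6 of them among the 10 of edgeR. RLE scaling turned the split for 14D against TN from 72 higher and 34 lower to 44 and 37. A 1500 UMI minimum gave 51 for 14D against TN. Requiring all 3 lipogenic genes gave 80 for age and 1157 against Ucp1-positive nuclei, and could not be fitted for 14D against TN. Age gave 19 in cleaned nuclei (without doublets and liver-marked nuclei), 168 at 14D alone and 27 at 3D alone.

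Leaving out each mouse in turn gave 450 to 733 calls against other nuclei, 26 to 85 for 14D against 3D, 2 to 149 for 14D against TN, 9 to 193 for age, 0 to 3 for the interaction and 1629 to 2288 against Ucp1-positive nuclei. No mouse left out is given for TN in 14D against TN, where each age had 1. For age, leaving out a TN mouse removed TN from the contrast, so the 193 is for 3D and 14D alone. The share differences ran from 11.9 to 30.4 points for 14D against TN, -19.0 to -7.76 for age and -30.8 to -12.0 for age in the cold. Requiring all 3 genes gave an age difference of -6.67, whose pass is not interpretable because Acly and Elovl6 were listed in neither aliquot of aged TN replicate 2. The same listing fixed this mouse at 0 in the main share tests, which ask for 2 genes.

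Among genes named, 3 reversed. Ttn against other nuclei was 0.99 by DESeq2, Alb for 14D against 3D ran from -3.28 to 0.31 over mice left out, and Fgf14 for age was 0.0157 at 14D alone. Of 1383 refits for 67 genes against other nuclei 1244 kept direction and call, of 389 for 14D against 3D 299, of 496 for 14D against TN 424, of 188 for age 164 and of 1407 against Ucp1-positive nuclei 1311. Genes under 6 UMIs in an aliquot, 2 mice per group and few TN nuclei limit what could be detected.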
